A study of Danio rerio with 9 samples.

Results

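Solute carriers are the membrane proteins that move amino acids, sugars, ions, metals, nucleotides and lipids across the plasma membrane and the membranes of organelles. The transcripts described here are those of solute carrier genes in zebrafish tails. They were taken as the array entries with a RefSeq mRNA identifier whose gene symbol begins with slc in the RefSeq annotation of the assembly GRCz12tu, and the vesicular transporter genes *slc32a1*, *slc17a6a* and *slc17a6b* were left out. This gave 64 transcripts of 64 genes in 30 families, out of 37176 transcripts on the array, of which 2663 could be given a gene name. The annotation holds 450 protein-coding genes with such a symbol, so 14.2% of them were read here. The tables of the study name further solute carrier genes on this array, which were not analysed here. Counts of solute carriers and of other listed genes below cover only the transcripts with an assigned name. Shares and counts given for all transcripts cover the 37176, with or without a name.

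The methods of the study name wild type AB fish and the line *Tg(TOP:GFP)*. Which of these gave the larvae for the arrays is not stated there or in the sample labels. In the cut group, tail fins were removed just behind the notochord at 2 dpf and the posterior tissue was collected at 3 dpf, 1 day after amputation (5 arrays). In the uncut group, posterior tissue of siblings that had not been amputated was collected at 3 dpf (4 arrays). Total RNA of about 150 tails of each condition went through 2 rounds of amplification and was hybridized to NimbleGen expression arrays. Whether each replicate came from its own batch of larvae is not stated, so p-values cover only the spread seen between these arrays, part or all of which may be technical. The tissue is a mixture of epidermis, fin mesenchyme, muscle, neural tube, vessels and other cells, and the arrays do not locate a transcript within it.

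Each family of solute carriers is defined by sequence, and its members usually share a kind of cargo. Families of the plasma membrane import nutrients and set ion balance, SLC25 proteins connect the mitochondrial matrix with the cytosol, and SLC35 proteins bring nucleotide sugars and the sulfate donor into the Golgi, where glycans and glycosaminoglycans are built. In fish larvae, skin cells also take up and release ions, since the gills are not yet fully working.

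Values are log2 signals after the authors' background correction and normalization, with array medians between 8.54 and 8.63. A signal depends on the probes of a transcript as well as on its RNA, so the signals of different genes are not an order of RNA amount. Cut and uncut arrays were compared with limma over all 37176 transcripts, and a transcript was called where the fold change was at least 1.5 and the adjusted p at most 0.1. Of 36 listed lens genes, 9 had an assigned transcript. Cut replicate 3 had a lens median of 11.76 and cut replicate 5 one of 8.41, while the 3 remaining cut arrays had 6.18 to 6.90 and uncut arrays 6.54 to 6.79. The log2 of the summed lens signal was 14.8 in cut replicate 3, 10.4 to 12.04 over the other cut arrays and 10.2 to 10.7 over the uncut arrays. Of 22 neuronal genes, 2 had an assigned transcript (*stmn2b* and *atp1a3b*). Their median was 11.45 in cut replicate 3 against 9.70 to 9.90 in all other arrays. Of 17 pancreas genes, 1 had an assigned transcript (*prss59.1*), at 11.62 in cut replicate 3 against 8.62 to 9.77 in the others. For several of the solute carriers whose values rest on cut replicates 3 or 5, results are given with and without these arrays. Other values, among them those of *slc29a4a* and the aquaporins, are given only with all arrays. The part of such tissue in the solute carrier values was not tested. Of the genes that mark the tail itself, 1 of 22 epidermal genes (*agr1*) had an assigned transcript, at 13.30 to 13.95 in all arrays. For 3 of 20 muscle genes, the median was 9.70 to 12.74 in uncut and 10.52 to 12.86 in cut arrays. Of 18 fin fold and notochord genes 1 (*bmp1a*) had an assigned transcript, at 10.17 to 11.21. The median per array was 8.06 to 9.53 for 2 of 12 blood genes and 7.53 to 8.45 for 5 of 20 ionocyte genes. The log2 of the summed signal of the 2 blood genes was higher, at 10.3 to 12.4 in uncut and 9.89 to 12.6 in cut arrays. None of 15 photoreceptor genes could be assigned. Of the list genes with an assigned transcript, 1 was called, the muscle gene *tnni1b*, higher in cut tails. Over all transcripts, 0.468% were called higher and 0.229% lower. List genes without an assigned transcript may also be on the array and were not read.

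In uncut tails, the mean signal of the 64 solute carrier transcripts ran from 4.78 to 15.25, with a median of 9.21 against 8.56 over all transcripts. Of the 64, 17 had a mean above the 75th percentile of all transcripts, 21 lay between the 50th and the 75th, 16 between the 25th and the 50th and 10 at or below the 25th. The brightest were *slc25a5*, an ADP/ATP carrier of the inner mitochondrial membrane, at 15.25 ± 0.12 (SD, n = 4), *slc16a10*, whose mammalian counterpart carries aromatic amino acids, at 14.98 ± 0.05, and *slc37a2*, a sugar-phosphate exchanger, at 14.64 ± 0.02. The dimmest was *slc18a3b*, the vesicular acetylcholine transporter of cholinergic neurons, at 4.78 ± 0.18, at percentile 1.38 of all transcripts. Whether such low signals lie above background was not analysed. The median SD over the uncut arrays was 0.18 for solute carriers and 0.22 for all transcripts, and over the cut arrays 0.21 and 0.25.

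**Figure D1:**
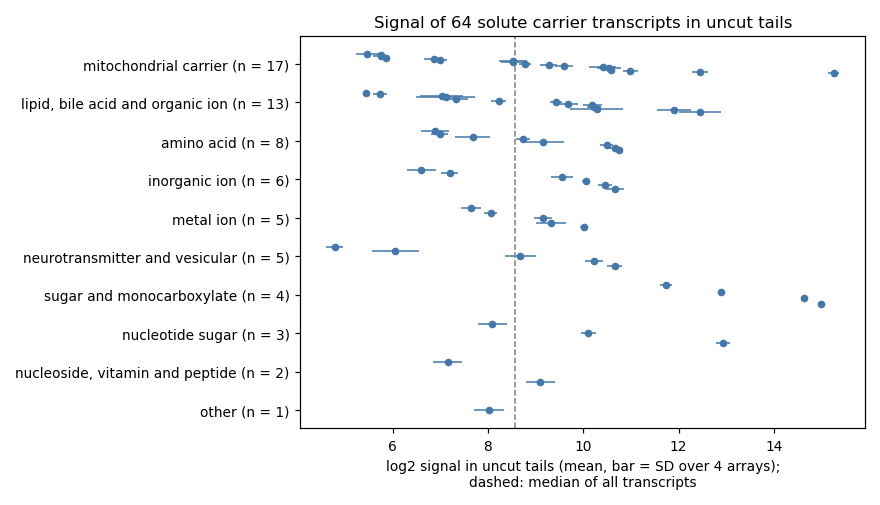
Mean log2 signal of each of the 64 solute carrier transcripts over the 4 uncut arrays (horizontal axis, bars are SD), grouped by the kind of cargo (vertical axis, with the number of transcripts); the dashed line is the median of all transcripts, 8.56. The 4 transcripts of the sugar and monocarboxylate class (SLC16 and SLC37) lie between 11.73 and 14.98, while those of the mitochondrial carriers spread from 5.47 to 15.25.

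Of the 64 solute carrier transcripts, 1 passed the test in cut tails. Among them, 0 were called higher, where 0.468% of all transcripts were, and 1, *slc43a1b*, was called lower, where 0.229% of all transcripts were. At an unadjusted p of at most 0.05, 3 had a positive change, or 4.69%, against 6.46% of all transcripts, and 6 a negative one, or 9.38%, against 5.71%. Among transcripts with an assigned gene, these shares were 7.89% and 3.3%. The 5 cut arrays lay entirely above the 4 uncut arrays for 1 transcript (*slco2b1*; 2.83% of all transcripts) and entirely below them for 3 (*slc43a1b*, *slc6a7* and *slc25a47a*; 1.89% of all transcripts). After array centering, 9 did not overlap, 1 above and 8 below, where 1.86% and 3.11% of all transcripts did so. Without centering, 4.09% of the transcripts with an assigned gene lay entirely above and 1.2% entirely below. The counts are of 0 to 8 solute carrier transcripts, and their difference from any of these shares was not tested. The median log2 fold change was 0.02, against 0.04 over all transcripts, and the values ran from -0.66 to 0.65. A positive log2 fold change was found for 33 transcripts and a negative one for 31, or 51.6% positive, where 57.5% of all transcripts and 64.9% of those with an assigned gene were positive. For 44 of the 64, or 68.8%, the 95% confidence interval of the fold change lay wholly within a change of 1.5 in either direction. This held for 54.7% of all transcripts and 62.5% of those with an assigned gene. The other 20 of the 64 include changes of at least 1.5 in their interval, so for these a change of that size lay within the precision of the arrays.

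**Figure D2:**
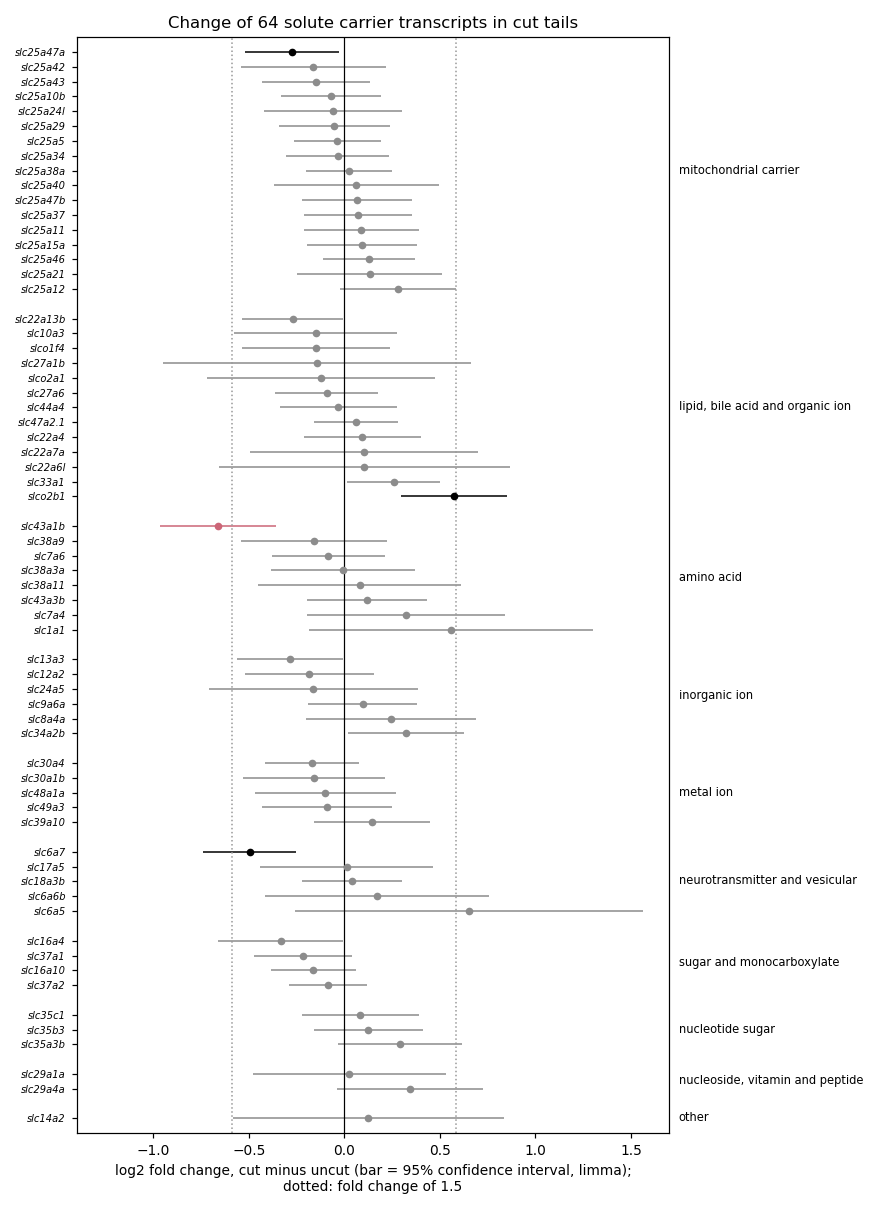
Log2 fold change (cut minus uncut, horizontal axis) of each of the 64 solute carrier transcripts with its 95% confidence interval, grouped by cargo; dotted lines mark a fold change of 1.5. The called transcript *slc43a1b* is red, the 3 other transcripts without overlap between the groups are black, and the remaining 60 are grey.

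The 1 called transcript encodes an amino acid carrier. *slc43a1b* (NM_001083000) belongs to SLC43, whose human counterpart carries large neutral amino acids such as leucine without coupling to sodium. Its log2 signal in uncut replicates 1 to 4 was 10.83, 10.71, 10.45 and 10.63, and in cut replicates 1 to 5 it was 10.24, 10.05, 9.71, 9.88 and 10.10. All cut arrays thus lay below all uncut arrays, and the lowest value was that of cut replicate 3. *slc43a1b* fell by 0.66 on the log2 scale (limma SE 0.14, adjusted p = 0.0946), a signal 1.58 times lower. In whole tissue, fewer cells that express a gene and less RNA per cell cannot be told apart. The change ran from -0.73 to -0.59 when single arrays were left out. The call lay close to the threshold and was lost without any 1 of 8 arrays: the adjusted p was 0.108, 0.191, 0.158, 0.203 and 0.127 without cut replicates 1 to 5 and 0.167, 0.330 and 0.300 without uncut replicates 1, 2 and 4. Without uncut replicate 3 it was 0.0562, and without both cut replicates 3 and 5 the log2 fold change was -0.60 (adjusted p = 0.217). The other SLC43 member with an assigned transcript, *slc43a3b*, had 10.71 to 10.80 in uncut and 10.50 to 11.20 in cut arrays. Its log2 fold change was 0.12 (adjusted p = 0.789).

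*slc6a7* encodes a carrier of the SLC6 family that moves proline with sodium and chloride and is known from the mammalian brain. It gave 10.71, 10.78, 10.44 and 10.70 in uncut replicates 1 to 4 and 10.19, 10.17, 10.10, 10.06 and 10.29 in cut replicates 1 to 5. The cut arrays were again all below the uncut arrays, within a range of 0.23 on the log2 scale. The log2 fold change was -0.50 (limma SE 0.11, adjusted p = 0.120), and its fold, 1.41, lay under the limit of 1.5. The value was -0.52 without cut replicates 3 and 5 and ran from -0.57 to -0.45 when each array was left out, so no single array carried it, and it was called in none of these.

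*slco2b1* was the 1 transcript among the 64 whose cut arrays all lay above the uncut arrays. It belongs to the slco family, whose members take up organic anions such as steroid conjugates and, in mammals, many drugs. Its signal was 9.56, 9.49, 9.97 and 9.69 in uncut replicates 1 to 4 and 10.39, 10.23, 10.08, 10.30 and 10.25 in cut replicates 1 to 5. The gap between the groups was narrow, between 9.97 in uncut replicate 3 and 10.08 in cut replicate 3. The log2 fold change was 0.57 (limma SE 0.13, adjusted p = 0.113), a fold of 1.49 with a 95% confidence interval of 1.23 to 1.81. It was called without uncut replicate 3 (log2 fold change 0.67, adjusted p = 0.0373) and with array weights (0.59, adjusted p = 0.0225). Over all transcripts, the first setting called 326 higher and 544 lower and the second 1371 and 1257, against 174 and 85 in the main fit. With any other single array left out, *slco2b1* was not called, with an adjusted p of 0.142 to 0.395. Without cut replicates 3 and 5 it was not called either (0.63, adjusted p = 0.204). The 2 other slco genes with an assigned transcript had negative values that did not pass the test. *slco2a1*, which encodes a prostaglandin transporter, spread from 9.65 to 10.99 in uncut arrays and from 9.66 to 10.64 in cut arrays, with a log2 fold change of -0.12 (adjusted p = 0.896) that became 0.00 without cut replicate 3 and 0.11 without uncut replicate 4. *slco1f4* had -0.15 (adjusted p = 0.786).

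**Figure D3:**
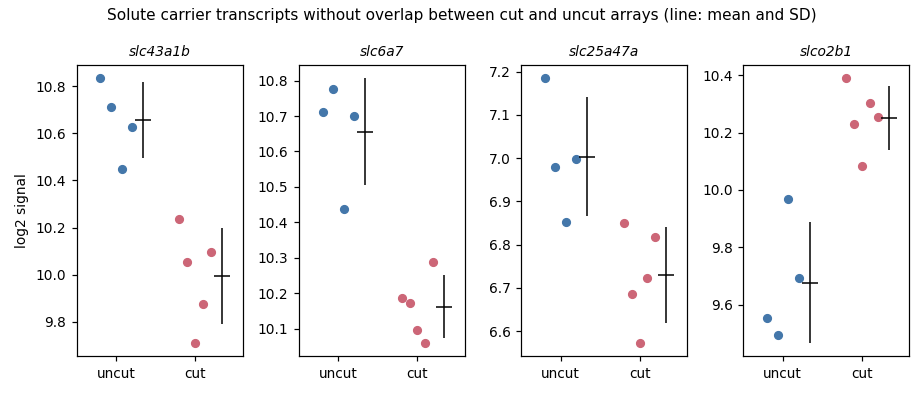
Log2 signal (vertical axis, a separate scale per gene that does not start at 0) of the 4 solute carrier transcripts without overlap between the 4 uncut arrays (blue) and the 5 cut arrays (red); the line beside each group is its mean and SD. Every cut array lies below the uncut arrays for *slc43a1b*, *slc6a7* and *slc25a47a* and above them for *slco2b1*, and the groups of *slc25a47a* nearly touch.

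The mitochondrial carriers were the largest family, with 17 transcripts. Their median log2 fold change was 0.02, against 0.04 over all transcripts. There were 9 positive and 8 negative values between -0.27 and 0.28 (8 and 9 after array centering). In either direction 0 were called, where 0.468% of all transcripts were called higher and 0.229% lower. Another SLC25 gene that the study names on this array was not analysed here. The brightest, *slc25a5*, gave 15.35, 15.12, 15.18 and 15.36 in uncut arrays and 15.25, 15.08, 15.22, 15.28 and 15.25 in cut arrays. The groups overlapped throughout, and the 95% interval of the fold change was 0.832 to 1.14. *slc25a11*, the oxoglutarate/malate carrier, had an uncut mean of 10.99 and a log2 fold change of 0.09 (adjusted p = 0.844), and *slc25a43* had 12.44 and -0.15 (adjusted p = 0.694). *slc25a12*, which carries aspartate and glutamate in the malate-aspartate shuttle, had the largest positive value, 0.28 (adjusted p = 0.451), from 8.21 to 8.83 in uncut and 8.69 to 8.94 in cut arrays. The carriers that feed heme synthesis were dim: *slc25a37*, the erythroid iron importer mitoferrin, had an uncut mean of 5.75, and *slc25a38a*, known from zebrafish and human red cells, 5.87, with log2 fold changes of 0.07 and 0.02.

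The duplicated genes *slc25a47a* and *slc25a47b*, whose mammalian counterpart is known mainly from liver, are the 1 a/b pair among the 64. *slc25a47a* gave 7.18, 6.98, 6.85 and 6.998 in uncut and 6.85, 6.69, 6.57, 6.72 and 6.82 in cut arrays. Its highest cut value, 6.850, and its lowest uncut value, 6.852, were nearly equal. The log2 fold change was -0.27 (limma SE 0.11, adjusted p = 0.359). *slc25a47b* ranged from 6.63 to 7.07 in uncut and from 6.75 to 7.11 in cut arrays, with a log2 fold change of 0.07 (adjusted p = 0.881). The changes of the 2 genes differed by -0.34 on the log2 scale (a minus b), with p = 0.0556 (exact permutation of the arrays, two-sided; the 1 pair tested).

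Among 8 amino acid carriers outside SLC6, 4 log2 fold changes were positive and 4 negative, with a median of 0.04. *slc1a1*, a carrier of glutamate and cysteine, had the largest positive value, 0.56 (limma SE 0.33, adjusted p = 0.546). Its signal was 7.12, 6.56, 7.16 and 6.74 in uncut and 7.45, 7.51, 8.60, 6.71 and 6.99 in cut arrays. Cut replicate 3 stood highest, cut replicates 1 and 2 also lay above all uncut arrays, and cut replicates 4 and 5 lay within the uncut range. Without cut replicate 3 the log2 fold change was 0.27 (adjusted p = 0.679). With the replicate number as a block, which leaves out cut replicate 5, it was 0.68 (limma, adjusted p = 0.198). With array weights it was 0.75 (limma, adjusted p = 0.110). *slc7a4* likewise had its highest value, 8.56, in cut replicate 3, with 7.48 to 8.24 in uncut and 7.49 to 8.21 in the other cut arrays. Its log2 fold change of 0.32 (adjusted p = 0.625) became 0.18 without cut replicate 3 (adjusted p = 0.791). For *slc38a9*, a lysosomal carrier and arginine sensor of the mTORC1 pathway in mammals, the log2 fold change was -0.16, for *slc7a6* -0.08, for *slc38a3a* -0.01 and for *slc38a11* 0.08, all with an adjusted p of at least 0.762.

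Carriers of neurotransmitters and vesicular carriers, *slc6a7* among them, numbered 5, of which 4 had a positive change (2 after array centering). *slc6a5* encodes the glycine transporter of inhibitory neurons, GlyT2, which in fish larvae is found in the spinal cord and hindbrain. It gave 8.90, 8.80, 8.84 and 8.19 in uncut and 9.23, 9.63, 10.69, 8.25 and 8.88 in cut arrays. Cut replicate 3, which also had the high neuronal marker signal given above, was the highest. Cut replicates 1 and 2 also lay above all uncut arrays. Cut replicates 4 and 5 lay within the uncut range, whose lower end was uncut replicate 4. The log2 fold change of 0.65 (limma SE 0.41, adjusted p = 0.569) became 0.31 without cut replicate 3 (adjusted p = 0.723). With the replicate number as a block, which leaves out cut replicate 5, it was 0.77 (limma, adjusted p = 0.206). With array weights it was 0.94 (limma, adjusted p = 0.118). The part of other tissue of cut replicate 3 in these values was not tested. *slc6a6b*, a taurine carrier, had its highest uncut value, 6.76, in replicate 1, with 5.64 to 5.92 in the other uncut arrays and 5.73 to 6.79 in cut arrays, and a log2 fold change of 0.17 (adjusted p = 0.845). *slc17a5*, which exports sialic acid from lysosomes, had 0.01 and *slc18a3b* 0.04.

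Of SLC16, named for monocarboxylates, and SLC37, which exchanges sugar phosphates, 4 members had an assigned transcript. The study also names an SLC16 gene on this array that was not analysed here. All 4 had a bright signal and a negative log2 fold change, where 42.5% of all transcripts and 35.1% of those with an assigned gene were negative. The median was -0.19, also negative after quantile normalization (-0.15), array centering (-0.24) and with array weights (-0.20), which use the same arrays. The median over all transcripts was 0.040, and 0.018 with the lower 50% by signal left out. Of the 4, 0 were called, where 0.468% of all transcripts were called higher and 0.229% lower. *slc16a4* was 12.88, 12.98, 12.84 and 12.85 in uncut and 12.78, 12.19, 12.38, 12.58 and 12.85 in cut arrays. The uncut arrays were tightly grouped (SD 0.06, against 0.28 in cut arrays), and cut replicate 5 reached into their range. Its log2 fold change was -0.33 (limma SE 0.15, adjusted p = 0.401). *slc16a10*, the aromatic amino acid carrier of this family, gave 14.99, 14.90, 15.03 and 14.996 in uncut and 14.86, 14.93, 14.63, 14.83 and 14.84 in cut arrays, with -0.16 (adjusted p = 0.564). The sugar-phosphate exchangers *slc37a1* and *slc37a2* had -0.22 and -0.09 (adjusted p = 0.493 and 0.755), with 95% intervals of the fold change of 0.721 to 1.03 and 0.817 to 1.08. After quantile normalization, *slc16a10* and *slc37a2* had -0.087 and -0.032, and *slc16a4* and *slc37a1* had -0.32 and -0.21. After array centering, the values of *slc16a10* and *slc37a2* were -0.21 and -0.14.

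Of 6 members of families that move inorganic ions or couple their cargo to sodium (SLC8, SLC9, SLC12, SLC13, SLC24 and SLC34), 3 log2 fold changes were positive and 3 negative. *slc13a3*, which takes up dicarboxylates such as succinate with sodium, was 10.02, 10.14, 10.10 and 9.97 in uncut and 9.54, 10.05, 9.69, 9.69 and 9.89 in cut arrays, so that only cut replicate 2 reached the uncut range (log2 fold change -0.28, SE 0.12, adjusted p = 0.401). *slc34a2b*, a sodium-phosphate cotransporter, was 7.38, 7.003, 7.09 and 7.32 in uncut and 7.30, 7.37, 7.65, 7.78 and 7.51 in cut arrays (log2 fold change 0.32, SE 0.14, adjusted p = 0.381). Neither difference passed the test over all transcripts. *slc12a2*, the sodium-potassium-chloride cotransporter, had an uncut mean of 10.67 and -0.18, and *slc9a6a*, an endosomal sodium-proton exchanger, 10.46 and 0.10. *slc24a5*, the exchanger behind the *golden* pigment mutant of zebrafish, ran from 9.31 to 9.82 in uncut and from 8.81 to 9.98 in cut arrays. Of 5 carriers of zinc, heme and related cargo, 4 had negative values between -0.17 and -0.09, the zinc exporters *slc30a1b* and *slc30a4* among them. The zinc importer *slc39a10* had 0.14. Negative values were found for 42.5% of all transcripts and 35.1% of those with an assigned gene. None of the 5 was called, where 0.468% of all transcripts were called higher and 0.229% lower. Without cut replicates 3 and 5, 2 of the 5 were negative.

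The 3 carriers of the Golgi and endoplasmic reticulum that supply glycan synthesis had positive log2 fold changes. So had 57.5% of all transcripts and 64.9% of those with an assigned gene. The 3 values stayed positive under quantile normalization, array centering and array weights, which use the same arrays. Of the 3, 0 were called, where 0.468% of all transcripts were called higher and 0.229% lower. *slc35b3*, which carries the sulfate donor PAPS, was 12.71, 13.03, 13.02 and 12.98 in uncut and 13.10, 13.25, 12.98, 13.17 and 12.79 in cut arrays, with 0.13 (limma SE 0.13, adjusted p = 0.745). *slc35a3b*, of the UDP-N-acetylglucosamine carriers, had 0.29 (adjusted p = 0.460), from 7.67 to 8.34 in uncut and 8.26 to 8.52 in cut arrays, and *slc35c1*, the GDP-fucose carrier, 0.08 (adjusted p = 0.858). The nucleoside and amine carriers *slc29a1a* and *slc29a4a* had 0.03 (negative under array centering) and 0.34 (adjusted p = 0.979 and 0.463); for *slc29a4a* the highest array was cut replicate 3, at 9.86. The urea transporter gene *slc14a2* was 7.98, 7.76, 7.89 and 8.48 in uncut and 7.96, 7.60, 7.77, 8.11 and 9.32 in cut arrays, so that cut replicate 5 alone stood above the uncut range; its log2 fold change was 0.13 with this array and -0.17 without it.

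Among 13 carriers of lipids, bile acids and organic ions, 6 log2 fold changes were positive and 7 negative, with a median of -0.03. An SLC10 gene that the study also names on this array was not analysed here. *slc33a1*, which carries acetyl-CoA into the endoplasmic reticulum, was 10.18, 10.11, 10.45 and 10.17 in uncut and 10.59, 10.57, 10.38, 10.43 and 10.45 in cut arrays. Uncut replicate 3 lay within the cut range, and the log2 fold change was 0.26 (limma SE 0.11, adjusted p = 0.384). *slc22a13b*, of the organic anion carriers, was 9.36, 9.56, 9.47 and 9.30 in uncut and 8.95, 9.03, 9.18, 9.33 and 9.29 in cut arrays (log2 fold change -0.27, SE 0.12, adjusted p = 0.397). *slc22a7a*, also an organic anion carrier, was bright, at 11.37 to 12.16 in uncut and 11.48 to 12.67 in cut arrays, with 0.10, which became -0.06 without cut replicate 2 and -0.07 without uncut replicate 4. *slc10a3* had 7.68 in uncut replicate 1 and 6.67 to 6.995 in all other arrays, and its log2 fold change of -0.15 became 0.07 without that array.

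*slc22a6l*, similar to the renal organic anion transporter of mammals, and *slc27a1b*, a fatty acid transport protein, depended most on cut replicate 3 in this class. *slc22a6l* was 6.20, 7.37, 7.56 and 7.30 in uncut and 6.56, 7.17, 8.15, 7.12 and 7.06 in cut arrays, and its log2 fold change of 0.10 became -0.13 without cut replicate 3. *slc27a1b* went the other way, with 12.76, 12.54, 11.79 and 12.67 in uncut and 12.98, 12.55, 11.02, 12.50 and 12.43 in cut arrays, and its -0.15 became 0.17 without cut replicate 3. Replicates with the number 3 were the lowest of their group for *slc27a1b* in both conditions, and the highest for *slc22a6l*. Leaving out cut replicate 3 alone keeps uncut replicate 3, and a fit without both was not run. With the replicate number as a block, which leaves out cut replicate 5, *slc27a1b* had -0.18 (limma, adjusted p = 0.629) and *slc22a6l* 0.14 (limma, adjusted p = 0.696). Over all 64 transcripts, cut replicate 3 held the highest value for 8 (12.5%, against 9.38% of all transcripts) and the lowest for 11 (17.2%, against 12.1%), while cut replicate 1 held the highest for 15 (23.4%, against 12.9%) and uncut replicate 4 the lowest for 12 (18.8%, against 10.5%).

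**Figure D4:**
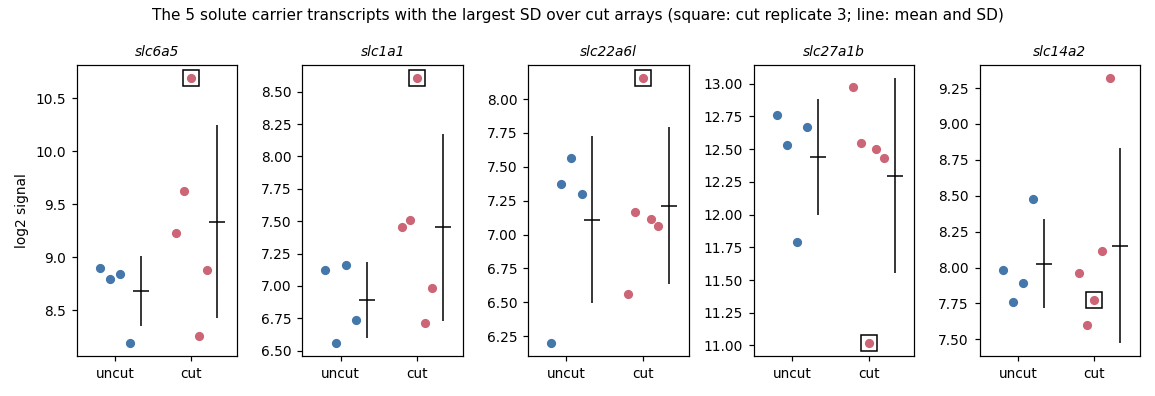
Log2 signal (vertical axis, a separate scale per gene that does not start at 0) in the 4 uncut arrays (blue) and the 5 cut arrays (red) of the 5 solute carrier transcripts with the largest SD over the cut arrays; the line is the mean and SD, and a square marks cut replicate 3. *slc6a5*, *slc1a1* and *slc22a6l* are highest and *slc27a1b* lowest in that array, and *slc14a2* is highest in cut replicate 5.

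Other genes of membrane transport were read from the same fit by symbol prefix. Of 3 ABC transporters, 3 aquaporins, 1 sodium-potassium ATPase subunit, 2 vacuolar proton ATPase subunits and 10 genes of potassium channels or their partner proteins (symbols beginning with kcn) with an assigned transcript, 0 were called in either direction, and no calcium ATPase gene was assigned. Over all transcripts, 0.468% were called higher and 0.229% lower. The largest value was that of *abcg2a*, which encodes an efflux pump of the ABC family, with a log2 fold change of 0.75 (limma SE 0.17, adjusted p = 0.128). Its cut arrays all lay above its uncut arrays, which held for 2.83% of all transcripts, and the groups overlapped for every other gene of these lists. The kcn genes had a median of 0.24, from 0.0045 (*kcnj13*) to 0.54 (*kcnj11*). Of these, 10 of 10 values were above 0, where 57.5% of all transcripts and 64.9% of those with an assigned gene were. After array centering or quantile normalization, 8 of 10 were above 0. The difference of these counts from the shares was not tested. The 3 aquaporins had a median of 0.32, and their median signal was 9.66 in cut replicate 3, with 7.45 to 8.34 in the 4 others of the cut group.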

How the data were processed

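The samples are 9 posterior tissue arrays, 5 from cut and 4 from uncut larvae. The authors compiled the scans with NimbleGen software and used ArrayStar (version not given) for RMA background correction and a normalization named quartile in the methods, and deposited 1 log2 value per transcript and array. How probes were summarized is not given in the sources used here. Values run from 3.17 to 15.99. Arrays have no read depth; precision is limited by their number.

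All 37176 transcripts were fitted by condition alone in limma 3.58.1 (R 4.3.3), with Benjamini-Hochberg adjustment; the script was tested on simulated data. The exact permutation test of the gene pair used the 126 arrangements of the arrays. Gene names came from RefSeq (2663 of 3055 RefSeq identifiers matched). Cargo classes follow the family number, so a single member may carry another cargo. Members and lists were chosen with earlier results of these data known. The rule for named genes took called members, the 10 brightest, up to 8 rises and 8 falls with an unadjusted p of at most 0.05, the 4 most variable per group, and a/b pairs (26 genes); the other members named were chosen after their values were seen. Alternatives were a replicate block, quantile normalization, median centering, filters on dim transcripts (lowest 25% and lower 50%), an intensity trend, array weights, an offset of 50, other thresholds, each array left out, and cut replicates 3 and 5 left out. Protein sequences that had been planned are not shown here.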

Additional observations from a re-analysis of the deposited data

Results flagged for a closer look

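Dixon's test for 1 array standing away from its group was run on 74 groups of arrays (named genes and class medians), and 5 held one. A rate of about 1 in 20 would give 3.7 for groups chosen without regard to their values. Some of these genes were named for their large SD over these arrays, and class medians share values with them. The number that chance gives for this set was therefore not determined. In cut arrays, *slc27a1b* was 11.02 in replicate 3, against 12.43 to 12.98 in the others. In uncut arrays, *slc35b3* was 12.71 in replicate 1, against 12.98 to 13.03. *slc6a5* was 8.19 in uncut replicate 4, against 8.80 to 8.90, and as the middle value of the 5 neurotransmitter and vesicular carriers it gave the same value for the median of that class. The median of the SLC16 and SLC37 members was 13.82 in uncut replicate 2, against 13.73 to 13.75.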

How the results depend on the processing

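Called lower, against 1, were 0 with an adjusted p of at most 0.05 and 0 without cut replicates 3 and 5, and 0 to 1 leaving out single arrays; called higher, against 0, were 1 with array weights and 0 to 1 with arrays left out. In a fit with a replicate block (8 arrays whose numbers occur in both groups), *slc43a1b* was again the 1 call (log2 fold change -0.69, adjusted p = 0.0612) and the median over the 64 transcripts was 0.0011; this fit leaves out cut replicate 5, and the same 8 arrays without the block gave the same log2 fold change with an adjusted p of 0.127 and no call. The block fit changed no other call of a solute carrier. Over all transcripts, the 8 arrays gave 377 higher and 297 lower with the block and 134 and 42 without it, against 174 and 85 for all arrays, and array weights gave 1371 and 1257. The sources do not describe any pairing by number, and deviations of same-numbered arrays from the group means correlated at 0.58, 0.09, 0.25 and 0.32, 1 of them under 0.1; each array correlated best with its own number among the arrays of the other group with a shared number. Transcripts without overlap, against 4, were 9 with array centering, 7 without cut replicates 3 and 5 and 4 to 7 with arrays left out, where fewer arrays overlap less by construction. The sign turned for *slc14a2* with the block (-0.17, the same value as without cut replicate 5 and no block), with array weights (-0.19) and without cut replicates 3 and 5 (-0.14), for *slc22a6l* with array weights (-0.079) and without cut replicates 3 and 5 (-0.16), for *slc27a1b* without these (0.23) and for *slc25a5* with quantile normalization (0.020); none was called, and apart from the array left out in the block fit the cause was not tested. With arrays left out in turn, *slc10a3* ran from -0.27 to 0.067, *slc14a2* from -0.17 to 0.28, *slc22a6l* from -0.20 to 0.27, *slc22a7a* from -0.072 to 0.23, *slc25a47b* from -0.0092 to 0.14, *slc25a5* from -0.082 to 0.00030, *slc27a1b* from -0.36 to 0.17 and *slco2a1* from -0.33 to 0.11. The median over the 64 ran from -0.012 to 0.038 in this way and was -0.034 with array centering, where that of all transcripts was -0.013. By the mean over all 9 arrays, the lowest 25% and the lower 50% of transcripts hold 11 and 25 of the 64, which those filters leave out. The percentile bands of the Results use the mean of the uncut arrays alone, so their counts differ.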
